A study of Mus musculus with 64 samples.

Results

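A set of 10 heat shock protein and chaperone genes was followed in bulk RNA sequencing of mouse hearts: Hspa1a, Hspa1b, Dnajb1, Hsph1, Hsp90aa1, Hspb1, Cryab, Hspb6, Hspb7 and Bag3. They form a family chosen by name rather than by a threshold on their values, and all 10 were present among the 16913 genes of the count table. The study compared C57BL/6J mice carrying cTnT-delta160E, a transgene for cardiac troponin T that lacks glutamic acid 160 and models hypertrophic cardiomyopathy (TG), with non-transgenic mice (nTG), in both sexes. Treadmill sessions of high-intensity interval training (HIIT; 31 min, 3 days a week for 6 weeks, with 85% and 50% of the group's average test speed as the high and low settings) were compared with sedentary life. The labels give 64 libraries in 8 groups. Males were 7 sedentary nTG, 9 sedentary TG, 8 trained nTG and 8 trained TG mice. Females were 8 sedentary nTG, 8 sedentary TG, 10 trained nTG and 6 trained TG mice, although the text of the series speaks of 7 to 9 samples in each group. The promoter, line and copy number of the transgene and the ages of the mice are not given in the sources used here.

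The gene columns could not be used under their own names. Sex-linked genes and Tnnt2 went against the labelled sex in 32 libraries and against the labelled genotype in 30 when gene columns were read by name. Each lncRNA column was therefore given the gene column that correlated best with it over 389 autosomal transcripts found in both tables. All 64 pairs were reciprocal, at r from 0.599 to 0.863 against at most 0.404 for the next best column, and no library then went against its labelled sex or genotype. Libraries 1 to 32 and 33 to 64 each stood in ascending order along the matched gene columns, and both series alternated at 62 of 63 neighbouring columns. Every group below rests on this match, which comes from the data and not from a label. Tnnt2 ranged from 6903 to 12001 CPM (counts scaled to a common library size) in TG libraries and from 2665 to 3428 CPM in nTG libraries. Totals ranged from 34.6 M to 67.1 M counts. All 8 cardiomyocyte markers were detected in every library. Blood markers were high in 1 sedentary TG male, at 4626 CPM summed over 6 genes against a group median of 549. Atrial markers were high in sedentary nTG male replicate 5 (601 CPM, group median 90.9) and in trained TG male replicate 4 (682 CPM, median 114), which was also the highest of its group in fibroblast (1777 CPM) and macrophage markers (255 CPM) and in Hspb6 and Hspb7. Without either of these libraries the calls in the comparisons of single strata that hold it kept their number.

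Heat shock proteins bind unfolded or partly folded proteins. HSP70 proteins, with HSP40 partners that deliver clients and nucleotide exchange factors that release them, fold in cycles driven by ATP, and HSP90 acts later on a smaller set of clients. Small heat shock proteins hold clients without ATP, and in heart muscle they protect desmin, titin and other parts of the sarcomere. BAG3 links HSP70 to small heat shock proteins and to autophagy at the Z-disc. The factor HSF1 switches on many of these genes by binding heat shock elements, inverted repeats of nGAAn, near their start sites.

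Start-site sequence is shown for 4 members: the paired HSP70 genes, because their reads are hard to tell apart, and a small heat shock protein with and one without a heat shock element in its upstream sequence. Each line gives the 150 bases before the RefSeq start site, on the gene's strand and from build GRCm38.p6. Capitals mark an element of 8 bases, GAANNTTC or TTCNNGAA, searched on both strands. The windows are chr17:34972157-34972306 (minus strand) for Hspa1a, chr17:34959239-34959388 (minus strand) for Hspa1b, chr5:135887769-135887918 (plus strand) for Hspb1 and chr4:141420629-141420778 (plus strand) for Hspb7.
Hspa1a: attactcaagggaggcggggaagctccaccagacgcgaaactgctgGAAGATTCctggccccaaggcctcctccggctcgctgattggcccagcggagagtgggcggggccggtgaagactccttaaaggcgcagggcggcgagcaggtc
Hspa1b: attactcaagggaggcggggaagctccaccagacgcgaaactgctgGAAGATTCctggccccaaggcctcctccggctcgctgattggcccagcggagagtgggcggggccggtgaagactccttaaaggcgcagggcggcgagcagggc
Hspb1: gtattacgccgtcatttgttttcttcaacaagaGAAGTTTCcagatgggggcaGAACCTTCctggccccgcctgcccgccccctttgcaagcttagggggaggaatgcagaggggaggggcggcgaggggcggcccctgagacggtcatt
Hspb7: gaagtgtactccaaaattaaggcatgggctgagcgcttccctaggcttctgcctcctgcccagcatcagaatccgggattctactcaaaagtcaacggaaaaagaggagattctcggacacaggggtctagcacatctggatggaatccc

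The windows of Hspa1a and Hspa1b differed at 1 of 150 bases, and at 3 of 250. Both had an element whose first base lay at -104 from the start. Hspb1 had 2 elements, at -117 and -97, and Hspb7 had none in 250 bases. Among the other members in the RefSeq table, Hsph1 had 1 element at either of its start sites (-33 and -54) and Hspb6 had 1 at its second start site (-120), while no match was found for Dnajb1 or Bag3. Cryab and Hsp90aa1 were not in that table. An element of this kind was found in 12.9% of 32536 upstream windows, and the same element extended by a further unit at the same spacing, 13 bases in all, in 0.47% of them and in no member. A match is a description of letters and not a site shown to be bound.

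The coding sequences set limits to what the counts can separate. Hspa1a (chromosome 17, 34969190 to 34972156) and Hspa1b (chromosome 17, 34956436 to 34959238; GENCODE M21 on GRCm38) code for nearly the same inducible HSP70. Of the 50-base words in Hspa1a transcripts, 58.8% also occurred in Hspa1b, and 62.3% of those in Hspa1b also occurred in Hspa1a, so how reads were divided between both genes is uncertain. Hspb1 shared 50.1% and Hsp90aa1 47.5% of such words with other annotated genes, mostly with the pseudogenes Hsp25-ps1 (48.8%) and Gm12346 (41.8%). Cryab overlaps the small heat shock protein gene Hspb2 on the opposite strand and shared 13.3% of its words with it. Hspa1a overlaps the protein-coding gene Gm20481 on the opposite strand over 2225 bases. Gm20481, which is not in the count table, held 16.2% of the words of Hspa1a and 10.8% of those of Hspa1b. Whether counting used the strand is not stated.

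Members differed widely in abundance. Per kilobase of exon, Hspb7, a small heat shock protein that binds filamin C in heart muscle, had a mean of 733 CPM and ranked 42nd of 16887 genes. Cryab (alpha B-crystallin, a desmin chaperone) had 455 CPM per kilobase and ranked 62nd. Hspb6 (HSP20) had 289 and ranked 81st, Hspb1 (HSP25, the mouse form of HSP27) had 177 and ranked 143rd, and Bag3 had 134 and ranked 197th. Hsp90aa1, the inducible cytosolic HSP90, had 18.7 CPM per kilobase. Hsph1 (HSP110, which releases nucleotide from HSP70) had 4.73, Dnajb1 (an HSP40 that delivers clients to HSP70) 3.30, Hspa1b 2.65 and Hspa1a 2.49, at ranks from 5447 to 7914. The lowest count of any member in any library was 157, for Hspa1a. Within groups the coefficient of variation was 3.64% to 8.03% for Cryab and 12.5% to 63.1% for Hspa1b.

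**Figure D1:**
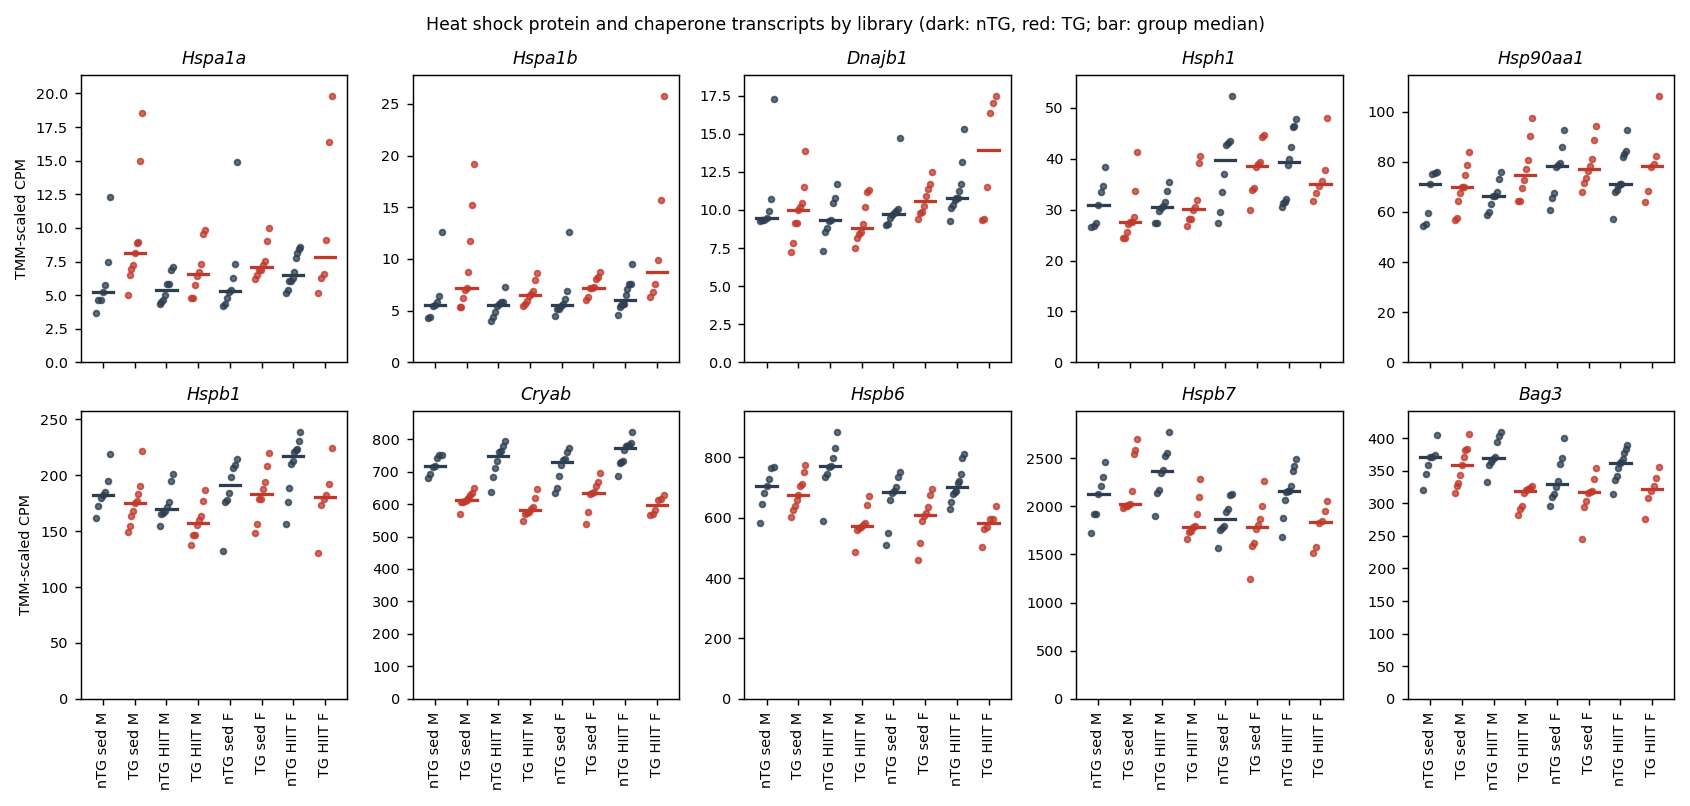
Each panel plots 1 gene, with TMM-scaled CPM from 0 on the y axis and the 8 groups on the x axis. Points are libraries, sorted by level within a group, and bars are group medians. Cryab is lower in TG groups throughout, at medians of 581 to 636 CPM against 718 to 773 CPM, while single mice stand out for Hspa1a, Hspa1b and Dnajb1.

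Cryab was the member that was lower in TG than in nTG hearts, past the threshold, in every stratum of sex and training. In sedentary males Cryab ran from 680.2 to 752 CPM (median 718) in nTG and from 569.7 to 649.9 (median 613) in TG hearts, and the groups did not overlap. The change was -0.23 ± 0.04 (log2, SE), with an adjusted p of 8.8e-05. In trained males it ran from 636 to 795 CPM (median 747) in nTG and from 547 to 647 (median 581) in TG hearts, where 7 of 8 TG hearts lay below the lowest nTG heart. That change was -0.32 ± 0.04, with an adjusted p of 4.6e-07. In sedentary females the ranges were 634 to 772 CPM (median 729) and 538 to 694 (median 636), which overlapped, and 4 of 8 TG hearts lay below all nTG hearts. The change there was -0.18 ± 0.04, with an adjusted p of 0.0079. In trained females Cryab ran from 688 to 821 CPM (median 773) in nTG and from 566 to 628 (median 598) in TG hearts, without overlap. The change was -0.35 ± 0.05, with an adjusted p of 1.3e-07. Averaged over the 4 strata, Cryab fell by 0.27 (log2; SE 0.02, 95% interval -0.31 to -0.22, adjusted p = 1.5e-15). Its antisense neighbour Hspb2, at a mean of 23.1 CPM against 673 for Cryab, changed by -0.10 ± 0.03 in the same average. With only the sedentary female groups in the fit, the change of Cryab there was -0.17 with an adjusted p of 0.13.

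Hspb6, Hspb7 and Bag3 were lower in TG hearts among trained males. In trained males Hspb6 ran from 589.7 to 884 CPM (median 771) in nTG and from 487 to 672 (median 572) in TG hearts, and 6 of 8 TG hearts lay below every nTG heart. It fell by 0.40 on the log2 scale (SE 0.07, adjusted p = 0.00012). Hspb7 ran from 1901 to 2768 CPM (median 2361) in trained nTG males and from 1664 to 2286 (median 1788) in trained TG males, with overlap. It fell by 0.32 (log2; SE 0.09, adjusted p = 0.0083). Bag3 did not overlap between these groups, at 332 to 409 CPM (median 369.5) against 282 to 327 (median 318). It fell by 0.28 (log2; SE 0.06, adjusted p = 0.00058). In the same comparison 5 of 6 blood markers were lower in TG hearts (median -1.22), at summed levels of 573 to 1114 CPM in nTG and 259.7 to 555 CPM in TG males. Actc1, Tnnc1 and Myl3 (cardiomyocyte), Smtn, Cdh5 and Ckm were also lower, beside 8.31% of all genes. Higher were Pdgfra, Col1a2, Dcn and Lum (fibroblast) and Adgre1, Csf1r and C1qb (macrophage), beside 5.65%. With cardiomyocyte level as a covariate, added after seeing the data, Hspb6 (-0.45), Hspb7 (-0.39) and Bag3 (-0.29) passed. The part of the other markers in these results was not tested. In sedentary males the same 3 genes had changes of -0.03 ± 0.07, 0.09 ± 0.09 and -0.03 ± 0.06, with adjusted p from 0.54 to 0.84 by edgeR. Their levels there overlapped, for example 321 to 405 CPM for Bag3 in nTG and 316 to 406 in TG males.

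Hspb6 and Hspb7 were also lower in TG hearts among trained females. Hspb6 ran from 629 to 810.4 CPM (median 703) in trained nTG females and from 504 to 641 (median 583) in trained TG females, where 5 of 6 TG hearts lay below all nTG hearts. It fell by 0.30 (log2; SE 0.08, adjusted p = 0.005). Hspb7 ran from 1680.1 to 2493 CPM (median 2156) in nTG and from 1517 to 2057 (median 1837) in TG trained females. It fell by 0.26 (log2; SE 0.09, adjusted p = 0.042), a call lost on leaving out any of 10 of the 16 libraries (nTG replicates 1, 2, 3, 5, 6 and 7 and TG replicates 1, 4, 5 and 6), with a highest adjusted p of 0.13. Bag3 had a change of -0.16 ± 0.06 in trained females (adjusted p = 0.056), at 315 to 389.6 CPM (median 362) against 276 to 355 (median 323), and it passed when nTG replicate 2, 4 or 7 or TG replicate 3 was left out. The markers Myh6, Actc1, Myl2, Tnnc1 (cardiomyocyte) and Ckm were lower there, beside 9.43% of all genes. Col1a2, Dcn and Lum (fibroblast), Adgre1, Csf1r, C1qa and C1qb (macrophage) and Tnni2 were higher, beside 5.37%. With cardiomyocyte level as a covariate Hspb6 (-0.38) and Hspb7 (-0.36, adjusted p = 0.036) passed, and the part of the other markers was not tested. In sedentary females the changes were -0.14 ± 0.07 for Hspb6, -0.09 ± 0.09 for Hspb7 and -0.12 ± 0.06 for Bag3, with adjusted p from 0.26 to 0.70. Hspb1 passed in no single stratum, with changes from -0.21 to -0.03, and libraries ran from 131 to 238 CPM. Averaged over the strata it fell by 0.11 (log2; SE 0.04, adjusted p = 0.040), and this call was lost in 29 of 64 fits without 1 library. Over the same average Hspb6 fell by 0.22, Hspb7 by 0.15 and Bag3 by 0.15 (SE 0.04, 0.04 and 0.03; adjusted p at most 0.0061).

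The inducible HSP70 genes lay on the other side. In sedentary males Hspa1a ran from 3.70 to 12.3 CPM (median 5.26) in nTG and from 4.99 to 18.5 (median 8.12) in TG hearts. Hspa1b ran from 4.28 to 12.6 CPM (median 5.51) and from 5.35 to 19.2 (median 7.18) in these groups. The changes were 0.60 ± 0.25 and 0.60 ± 0.23, with adjusted p of 0.074 and 0.061, and the groups overlapped. In trained males Hspa1b ran from 3.96 to 7.26 CPM (median 5.57) in nTG and from 5.49 to 8.68 (median 6.53) in TG hearts, a change of 0.31 ± 0.23 (adjusted p = 0.42), and Hspa1a had 0.32 ± 0.25 (adjusted p = 0.43). In sedentary females Hspa1b ran from 4.49 to 12.6 CPM (median 5.54) in nTG and from 5.99 to 8.70 (median 7.24) in TG hearts, a change of 0.19 ± 0.23 (adjusted p = 0.76), and Hspa1a had 0.20 ± 0.24 (adjusted p = 0.76). The largest spread lay in the 6 trained TG females, at 6.29 to 25.8 CPM (median 8.70) against 4.54 to 9.51 (median 6.07) in trained nTG females. Hspa1b rose there by 0.89 ± 0.23 (log2, SE; adjusted p = 0.0057). Without trained TG female replicate 3, the mouse at 25.8 CPM, the change was 0.52 and the adjusted p 0.12. With the summed level of cardiomyocyte markers as a covariate, an alternative added after seeing the data, it was 0.67 and the adjusted p 0.16. Hspa1a had a change of 0.63 ± 0.24 in these females (adjusted p = 0.070).

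Averaged over the strata, Hspa1a rose by 0.44 (log2; SE 0.12, 95% interval 0.19 to 0.68, adjusted p = 0.0029) and Hspa1b by 0.50 (SE 0.12, 0.26 to 0.73, adjusted p = 0.00043). Both averages passed in all 64 fits that left out 1 library, at 0.37 to 0.52 and 0.41 to 0.56. With the cardiomyocyte level as a covariate both calls were lost, at 0.31 (adjusted p = 0.23) for Hspa1a and 0.31 (adjusted p = 0.22) for Hspa1b. Counts of both genes summed to 1 feature gave 0.47, with an adjusted p of 0.00071. In sedentary males neither gene passed with all libraries, while both passed without nTG replicate 3 (0.85 for Hspa1a and 0.86 for Hspa1b) or without TG replicate 3. Hspa1b alone passed there without TG replicate 4, 7, 8 or 9. In trained females Hspa1a passed without TG replicate 2, 4 or 6, and Hspb1 passed without TG replicate 1.

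Dnajb1, Hsph1 and Hsp90aa1 did not pass. Dnajb1 had a mean change of 0.04 ± 0.06 over the strata and Hsph1 of -0.04 ± 0.06, with adjusted p of 0.63 and 0.64. Hsp90aa1 had 0.10 ± 0.05 and an adjusted p of 0.084, and it passed in 3 of 64 fits without 1 library (TG trained female replicate 4 or 5, nTG sedentary female replicate 1). Intervals of the mean change reached from -0.08 to 0.17 for Dnajb1 and from -0.15 to 0.08 for Hsph1. In trained TG females the median of Dnajb1 was 13.9 CPM, above the group medians of 8.82 to 10.8 CPM elsewhere. These mice ran from 9.35 to 17.5 CPM, and replicates 4 and 6 (9.41 and 9.35 CPM) lay within the range of those medians. The change against nTG was 0.25 ± 0.13 and did not pass (adjusted p = 0.18).

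**Figure D2:**
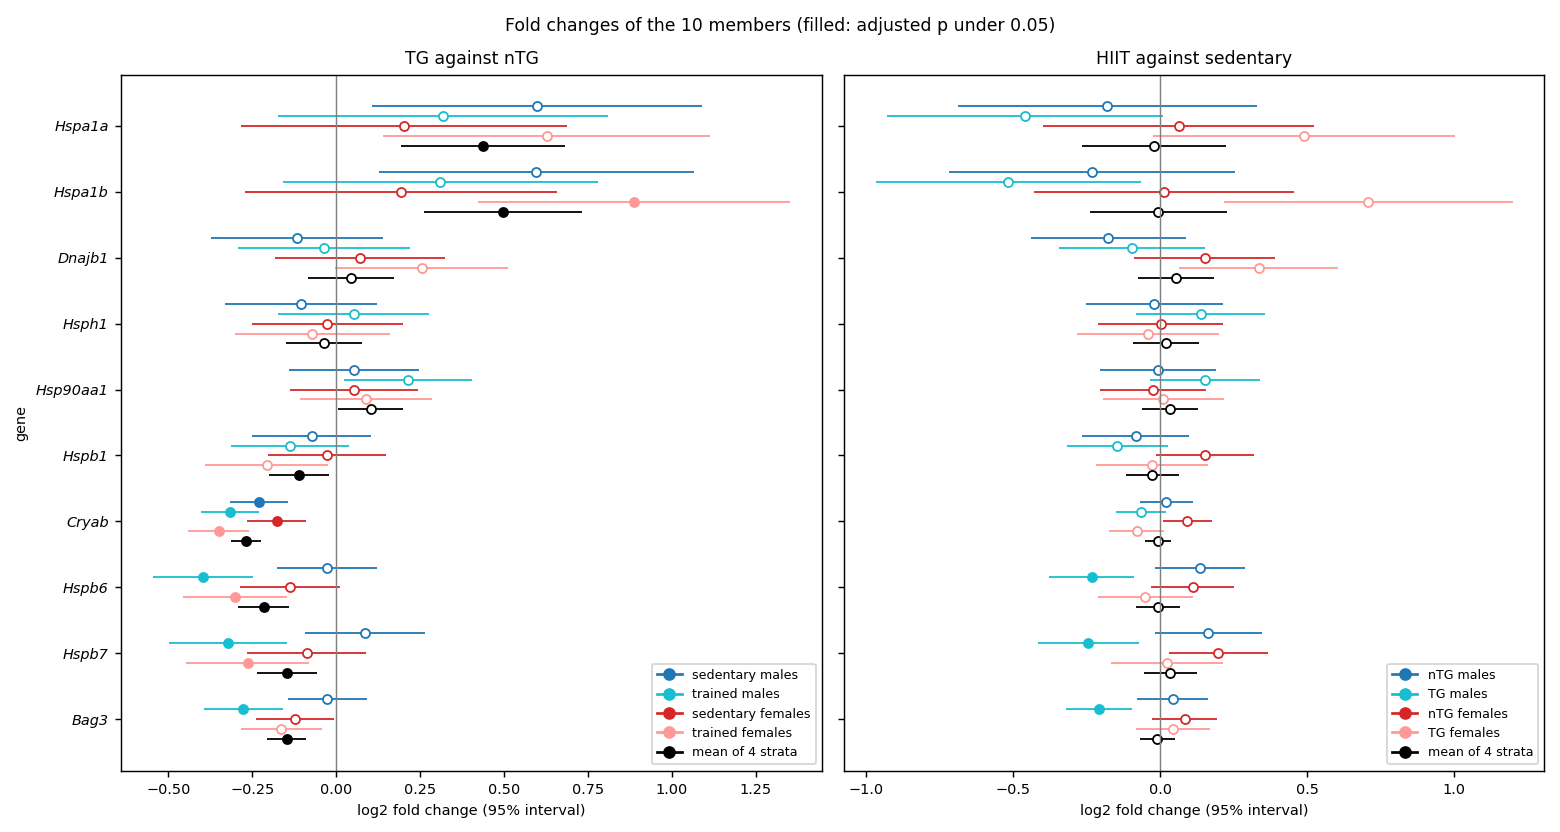
The x axes give log2 fold changes with 95% intervals of the 10 members on the y axis, for TG against nTG (left) and HIIT against sedentary (right), in each stratum and averaged. Filled points passed an adjusted p of 0.05. Cryab is filled in all 5 TG comparisons, and on the right the filled points are Hspb6, Hspb7 and Bag3 in TG males.

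Counted over members, the transgene comparisons stood as follows. In sedentary males 1 of 10 members passed, where 20.6% of all genes did. In trained males 4 of 10 passed, all lower, against 14% of all genes in either direction and 8.31% lower. In sedentary females 1 of 10 passed against 4.37% of all genes. In trained females 4 of 10 passed, 3 lower and 1 higher, against 14.8% of all genes. Averaged over strata 7 of 10 passed, 5 lower and 2 higher, against 39% of all genes. The 5 lower ones were all of the small heat shock proteins and Bag3, at a median of -0.15 for that set against 0.01 for all genes.

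Cell markers differed between the same groups. Averaged over strata, 7 of 8 cardiomyocyte markers were lower in TG hearts (median -0.16), while 6 of 6 fibroblast markers (median 0.41) and 6 of 6 macrophage markers (median 0.40) were higher. In that average 18.5% of all genes were higher and 20.5% lower. Summed cardiomyocyte markers ranged from 49689 to 66125 CPM in TG libraries and from 58453 to 71864 in nTG libraries. Summed fibroblast markers ranged from 787 to 1777 CPM in TG and from 630.4 to 1457 in nTG libraries, and macrophage markers from 130.1 to 267 against 105 to 217. None of these markers was at 0 in any library. In the same average 3 of 6 blood markers (Hba-a1, Hba-a2 and Alas2, at -0.42 to -0.38), 2 of 6 smooth muscle markers and 1 of 6 endothelial markers were lower. Of 4 atrial markers measured 1 was higher (Nppa, 0.91 ± 0.22), and the listed Bmp10 was not in the count table. Of 8 skeletal muscle markers listed, Tnnt3, Myh4, Myh1 and Mylpf were not in the count table. Of the 4 measured, 2 were higher (Acta1, 0.93 ± 0.17, and Tnni2) and 1 lower (Ckm). Of 12 clock genes 1 was higher and 2 lower (Arntl, -0.47 ± 0.16, and Cry1). Of 8 immediate early genes that respond to handling and tissue collection, 2 were higher in the same average, beside 18.5% of all genes (median of the 8 genes 0.13). They were Junb (0.23 ± 0.06, adjusted p = 0.0034) and Ier2 (0.12 ± 0.05, adjusted p = 0.049), in the average in which Hspa1a and Hspa1b rose. In sedentary TG males, Dusp1 of this list was lower (-0.28 ± 0.10, adjusted p = 0.045), beside 11.2% of all genes. Summed over these genes, libraries ranged from 182 to 388 CPM in TG and from 198 to 328 CPM in nTG hearts. The trained TG female with 25.8 CPM of Hspa1b (replicate 3) was the highest of its group in this sum, at 386 CPM against a group median of 289.8. It was also the highest there in fibroblast (1270 CPM), macrophage (246), blood (611), atrial (241), clock (791) and cold-inducible sums (46.2). It was not the highest in cardiomyocyte, smooth muscle, endothelial or skeletal muscle sums. The library with the highest immediate early sum of all, sedentary TG female replicate 6 (388 CPM), had 8.22 CPM of Hspa1b. The part of these markers in the result was not tested beyond the fit with cardiomyocyte level given below. In bulk heart RNA, fewer cells of a type and less RNA per cell cannot be told apart. With the summed cardiomyocyte level as a covariate, the mean change was -0.24 for Cryab (adjusted p = 1.6e-08), -0.28 for Hspb6, -0.23 for Hspb7 and -0.17 for Bag3, all past the threshold. Hspb1 (-0.13, adjusted p = 0.15), like Hspa1a and Hspa1b, did not pass in that fit.

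With training, 3 members were lower in TG males, the small heat shock proteins Hspb6 and Hspb7 and their partner Bag3. Hspb6 ran from 602 to 776 CPM (median 676) in sedentary TG males and from 487 to 672 (median 572) in trained TG males, and 6 of 8 trained hearts lay below every sedentary heart. It fell by 0.23 (log2; SE 0.07, adjusted p = 0.020). Hspb7 ran from 1984 to 2703 CPM (median 2028) in sedentary and from 1664 to 2286 (median 1788) in trained TG males, and 6 of 8 trained hearts lay below every sedentary heart. It fell by 0.24 (log2; SE 0.09, adjusted p = 0.038). Bag3 ran from 316 to 406 CPM (median 358) in sedentary and from 282 to 327 (median 318) in trained TG males, with overlap. It fell by 0.21 (log2; SE 0.06, adjusted p = 0.0089). Cryab had a change of -0.06 ± 0.04 (adjusted p = 0.29). These 3 of 10 calls stood beside 18% of all genes in either direction and 7.6% lower.

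The call of Bag3 held in all 17 fits without 1 library. That of Hspb6 was lost without sedentary replicate 2 or trained replicate 2 (adjusted p of 0.050 and 0.061). That of Hspb7 was lost in 8 of the 17 fits, without sedentary replicate 2, 4 or 5 or trained replicate 2, 3, 6, 7 or 8, at adjusted p up to 0.090. Blood markers were lower with training in these males for 6 of 6 genes (median -1.46, summed medians of 549 and 384 CPM), macrophage markers for 4 of 6 and endothelial markers for 3 of 6, and 2 of 8 cardiomyocyte markers were higher. Lower as well were 1 of 6 fibroblast markers (Col1a1, -0.41 ± 0.15), 1 of 6 smooth muscle markers (Smtn, -0.17 ± 0.06) and 1 of 8 immediate early genes (Junb, -0.41 ± 0.12). Of all genes 7.6% were lower and 10.3% higher in this comparison. Without sedentary replicate 5, the heart with the highest blood markers, 2 members passed (Hspb6 and Bag3), and Hspb7 had -0.23 with an adjusted p of 0.072. The part of these markers in the result was not tested beyond the fit with cardiomyocyte level, in which Bag3 passed (-0.20, adjusted p = 0.034) and Hspb6 (-0.19, adjusted p = 0.082) and Hspb7 (-0.20, adjusted p = 0.14) did not.

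In the other training comparisons no member passed. In nTG males 0 of 10 passed by edgeR, beside 0% of all genes, and none had an unadjusted p under 0.05. There Hspb6 had a change of 0.14 ± 0.08 and Hspb7 of 0.16 ± 0.09, both above 0. In nTG females 0 of 10 passed beside 0.148% of all genes, with 2 members at an unadjusted p under 0.05, Cryab (0.09 ± 0.04) and Hspb7 (0.20 ± 0.08). In TG females 0 of 10 passed beside 0% of all genes, with Hspa1b (0.71 ± 0.24) and Dnajb1 (0.34 ± 0.14) at an unadjusted p under 0.05. Averaged over the 4 strata 0 of 10 passed beside 3.98% of all genes, and the changes lay between -0.03 and 0.05. DESeq2 and limma voom called no member in these 4 comparisons either.

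Differences between effects were tested directly. The interaction of genotype and training in males had 0 of 10 members past the threshold beside 0% of all genes, with 3 at an unadjusted p under 0.05. They were Hspb6 (-0.37 ± 0.11), Hspb7 (-0.41 ± 0.13) and Bag3 (-0.25 ± 0.08), with adjusted p of 0.14, 0.16 and 0.18. By limma voom with quality weights Hspb6 and Hspb7 passed, at an adjusted p of 0.042, among 300 of 16913 genes. DESeq2 called 13 genes and no member. In females the same interaction had 0 of 10 beside 0%, with Hspa1b (0.69 ± 0.33) and Cryab (-0.17 ± 0.06) at an unadjusted p under 0.05. The interaction of training and sex in TG mice had 0 of 10 beside 0%, with 5 at an unadjusted p under 0.05. They were Hspa1b, Hspa1a (0.95 ± 0.35), Dnajb1 (0.43 ± 0.18), Hspb7 (0.27 ± 0.13) and Bag3 (0.25 ± 0.08). Hspa1b had 1.23 ± 0.33 (females minus males; adjusted p = 0.096), from training values of -0.52 ± 0.23 in TG males (adjusted p = 0.099) and 0.71 ± 0.24 in TG females (adjusted p = 1.0), neither past the threshold. It passed by DESeq2 (adjusted p = 0.042, among 223 genes), and Bag3 passed by limma voom (0.27, adjusted p = 0.028, among 927 genes). By edgeR, Hspa1b passed without trained TG male replicate 4, sedentary TG female replicate 4 or trained TG female replicate 6, and Hspa1a and Bag3 without the last of these.

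The interaction of genotype and sex had 0 of 10 members past the threshold in sedentary mice beside 0% of all genes, and 0 of 10 in trained mice beside 0%, with none at an unadjusted p under 0.05 in either and none called by DESeq2 or limma voom. The 95% interval for Cryab was -0.07 to 0.18 in sedentary and -0.16 to 0.09 in trained mice. Between sedentary nTG females and males 0 of 10 members passed beside 2.22% of all genes. Hsph1 had a difference of 0.31 ± 0.12 (females minus males, unadjusted p of 0.0098 by edgeR, adjusted p = 0.16), at 27.3 to 52.3 CPM (median 39.8) in females and 26.5 to 38.3 (median 30.9) in males.

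Pairs of members were compared among mice of 1 group. After each group's mean was taken away, log2 CPM was compared over the 64 libraries for all 45 pairs, with permutation within groups and Benjamini-Hochberg adjustment over the pairs. All 10 pairs within Hspa1a, Hspa1b, Dnajb1, Hsph1 and Hsp90aa1 were positive and past the threshold, at r from 0.32 to 0.83. Of 10 pairs within the small heat shock proteins and Bag3, 9 passed, at r from 0.22 to 0.75. Of 25 pairs between the sets 12 passed, 10 of them positive, and the median r was 0.18. By Spearman's rho as well, 8, 8 and 10 of these pairs passed. An r over 0.3 was found for 29 of the 45 pairs, beside 9.53% of all pairs among the 13397 genes with a mean of at least 50 counts, whose 95th percentile of r was 0.38. Pairs share genes and libraries, so these shares are a description.

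Hspa1a and Hspa1b were the closest pair (r = 0.83, rho = 0.70, permutation p = 1e-05, the smallest the permutations can give, adjusted p = 7.5e-05), and the part of their shared sequence in this value was not tested. Hspb6 and Hspb7 followed (r = 0.75, rho = 0.71), and Hsph1 and Hsp90aa1 (r = 0.75, rho = 0.73), each at the same p. Hspb1 went with members of both sets, at r = 0.64 with Hsph1, 0.57 with Hspa1a and 0.64 with Bag3. Hspb7 was at r = -0.33 with Hsp90aa1 (rho = -0.29, adjusted permutation p of 0.017) and -0.28 with Hsph1 (rho = -0.26, adjusted permutation p of 0.043 for r and 0.071 for rho). Cryab did not pass with any HSP70 or HSP90 member by r, and by rho it passed with Hsph1 (rho = 0.30, adjusted permutation p of 0.042). Without the 2 libraries farthest from the median, r was 0.79 for Hspa1a with Hspa1b, 0.70 for Hspb6 with Hspb7, 0.72 for Hsph1 with Hsp90aa1 and -0.32 for Hsp90aa1 with Hspb7.

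**Figure D3:**
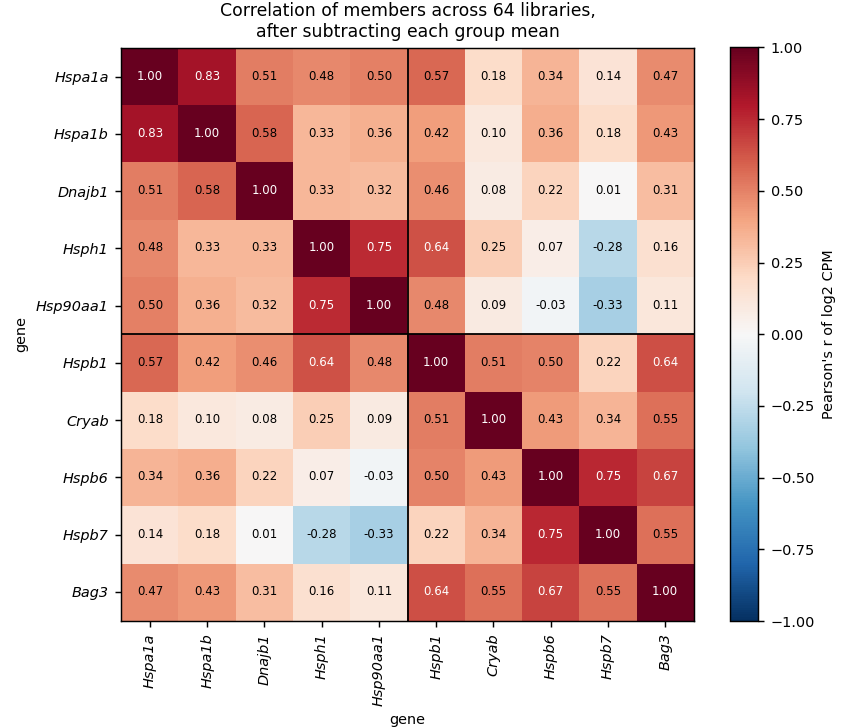
Cells give Pearson's r of log2 CPM between members (both axes) over 64 libraries after subtraction of group means, on a scale from -1 (blue) to 1 (red), and lines divide the HSP70 and HSP90 set from the small heat shock proteins and Bag3. Values within either set are positive, at 0.22 to 0.83, and the lowest value between them is -0.33, for Hsp90aa1 and Hspb7.

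Among 13387 other genes with a mean of at least 50 counts, those most like the mean pattern of the HSP70 and HSP90 set over the 64 libraries were Dnaja1 (r = 0.83), an HSP40, Serpinh1 (0.77), the collagen chaperone HSP47, Hspa8 (0.74), the constitutive HSP70, P4ha1 (0.72), a collagen prolyl hydroxylase, and Dynll1 (0.69), a dynein light chain. Those most like the small heat shock proteins and Bag3 were Pigs (0.83), Pcbp4 (0.82), Parvb (0.79), Des (0.79), which codes for desmin, and Hcfc1r1 (0.78). These are the highest values among all genes compared and are given as a description.

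Other chaperones were read from lists of the folding machinery, with edgeR's adjusted p over all genes. Of 14 endoplasmic reticulum chaperones, 9 were lower in TG hearts in sedentary males (11.2% of all genes lower), 6 in sedentary females (2.78%) and 5 in trained females (9.43%). In trained males 0 of 14 passed (8.31% of all genes lower), and none was higher in any stratum. Averaged over strata 11 of 14 fell, beside 20.5% of all genes lower, at a median of -0.16. They included Hspa5 (BiP, the main HSP70 of that compartment; -0.33 ± 0.04), Hyou1 (-0.24 ± 0.04) and Manf (-0.35 ± 0.05). Of 12 mitochondrial chaperones and proteases 9 fell in the average (median -0.13), with Dnaja3 (-0.14 ± 0.02), Grpel1 (-0.15 ± 0.03) and Clpp (-0.15 ± 0.03) first by p. Of 13 HSP90 proteins and co-chaperones 8 fell and 2 rose. Fkbp4, an immunophilin partner of HSP90, fell by 0.26 (SE 0.03), Smyd1, a muscle methyltransferase, by 0.17 (SE 0.02) and Cdc37, which brings kinases to HSP90, by 0.14 (SE 0.02).

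In the same average, where 20.5% of all genes were lower and 18.5% higher, 6 of 13 HSP40 genes fell and 1 rose, and Dnajb6 (-0.21 ± 0.02) and Dnajb2 (-0.15 ± 0.02), both of which hold back aggregation, and Dnaja4 (-0.13 ± 0.03) came first. Of 9 other HSP70 proteins 5 fell, among them Hspa12a (-0.22 ± 0.03) and Hspa4l (-0.15 ± 0.03), and 1 rose, Hspa1l (0.28 ± 0.06). Of 4 other small heat shock proteins measured, Hspb2 fell (-0.10 ± 0.03) and Hspb11, an intraflagellar transport protein by another name, rose (0.32 ± 0.08). Of 8 BAG proteins and exchange factors 3 fell and 1 rose, and Stub1, the ubiquitin ligase CHIP that works with BAG3, fell by 0.09 (SE 0.02). None of the heat shock factors Hsf1, Hsf2 and Hsf4 passed, nor did Hsbp1, which binds HSF1. Of the 5 genes in that list only Hspbap1, named for its binding of HSPB1, passed (0.18 ± 0.05). Of 12 BAG3 partners and sarcomere clients 4 fell and 3 rose, with Wipi1, an autophagy protein, at -0.16 ± 0.02, Ttn, which codes for titin, at 0.21 ± 0.03 and Synpo2l at 0.32 ± 0.06. Of 8 subunits of the TRiC chaperonin, which folds actin and tubulin, only Tcp1 fell (-0.08 ± 0.02).

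With training in TG males, where Hspb6, Hspb7 and Bag3 fell, other lists had members that rose. Of 8 TRiC subunits 5 rose (median of the list 0.14), among them Tcp1 (0.18 ± 0.04), Cct6a (0.24 ± 0.06) and Cct8 (0.22 ± 0.06). Of 12 mitochondrial chaperones 5 rose, with Yme1l1 (0.33 ± 0.07), Hspd1 (HSP60; 0.30 ± 0.06) and Hspa9 (0.16 ± 0.04) first, and of 14 endoplasmic reticulum chaperones 4 rose, with Dnajb9 (0.42 ± 0.08), Canx (0.22 ± 0.06) and Hsp90b1 (0.27 ± 0.08) first. None in these 3 lists fell, while 10.3% of all genes rose and 7.6% fell in this comparison. Of 13 HSP90 proteins and co-chaperones 3 rose (Ptges3, Ppid and Chordc1, at 0.21 to 0.27), and of 13 HSP40 genes 3 rose (Dnajb4, Dnajc13 and Dnaja2, at 0.14 to 0.30). Of 9 other HSP70 proteins 2 rose and 1 fell. Among 4 other small heat shock proteins Hspb8, which BAG3 binds, fell by 0.20 (log2, SE 0.07, adjusted p = 0.039). Among 8 BAG proteins and exchange factors Bag6 (-0.19 ± 0.05) and Hspbp1 (-0.21 ± 0.06) fell, while St13 (0.12 ± 0.04) and 1 further gene of that list rose.

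**Figure D4:**
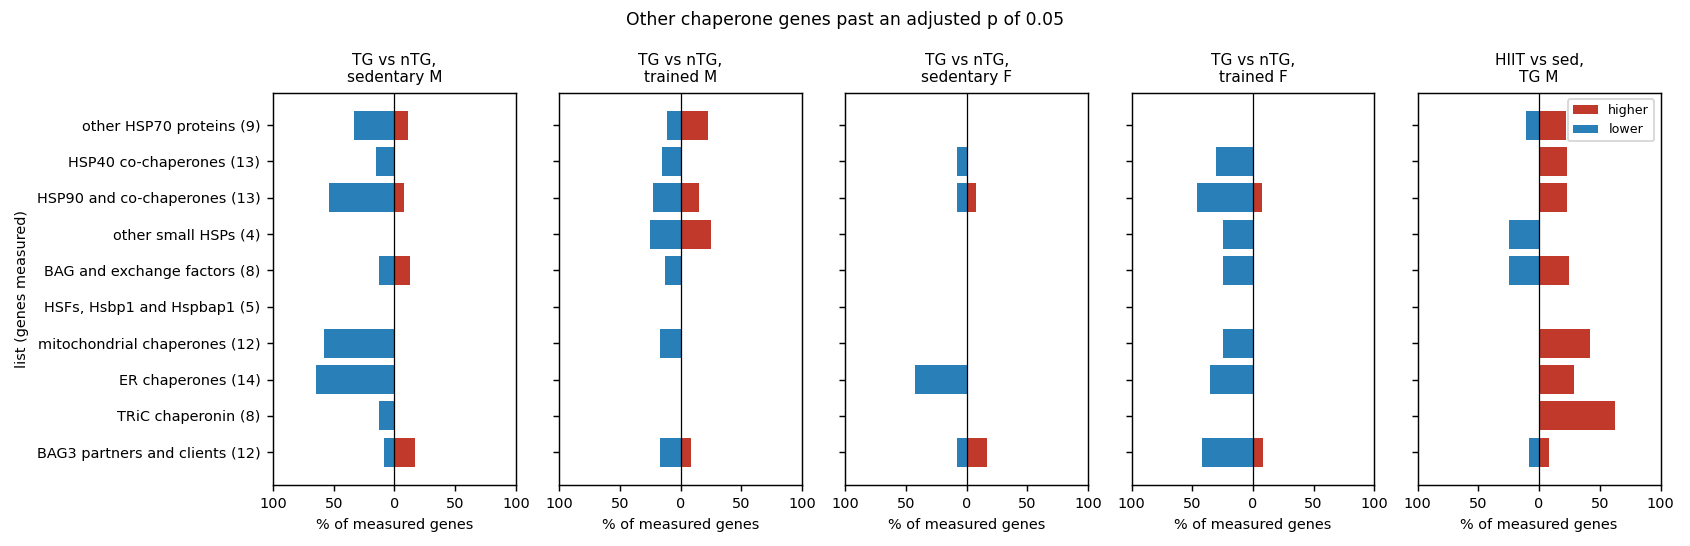
Bars give the percentage of each list's measured genes past an adjusted p of 0.05, higher to the right (red) and lower to the left (blue), in 5 comparisons, and the number measured stands beside each list. Endoplasmic reticulum chaperones are lower in 9 of 14 genes in sedentary TG males, and TRiC subunits are higher in 5 of 8 with training in TG males.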

How the data were processed

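Hearts of 64 mice were profiled by RNA sequencing after depletion of ribosomal RNA, per the labels' protocols. The deposited gene table holds raw counts of 16913 genes by Ensembl identifier, and the deposited lncRNA table holds expected counts of 3787 transcripts. The authors' tools were cutadapt 2.3, FastQC 0.11.8, MultiQC 1.7, STAR 2.7.8a and RSEM 1.3.3 with builds GRCm38 and mm10, per the submitters' processing notes, which give no order. How the counts were assigned to strands or to genes with shared sequence is not given in the sources used here. Symbols from GENCODE M21 matched 16887 identifiers.

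Gene columns were matched to lncRNA columns by Pearson's r of centred log2 CPM (pseudocount 0.5), over autosomal transcripts with a mean of at least 20 counts in both tables, with the members left out. The lncRNA values served only for this match.

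Counts were tested with edgeR 4.0.16 (quasi-likelihood F test, TMM scaling, 8 group means, 16 contrasts), with Benjamini-Hochberg adjustment over all genes at 0.05. Changes are log2 values from that fit, and CPM use TMM-scaled library sizes. The filter on low counts kept all genes, so all 10 members passed it. Within a group no pair of libraries was identical or agreed within sampling noise. The procedure was tested on simulated data. Alternatives were DESeq2 1.42.0, limma 3.58.1 (voom with quality weights), size factors from medians of ratios, all genes unfiltered, fits of only the groups compared, library number as a covariate, replicate number as a block, summed HSP70 genes, columns by name and single libraries left out. The naming rule covered all members in every comparison and up to 3 called genes of smallest p for each pathway list, and members that missed the threshold are in part given only by counts or ranges. Markers named singly were chosen after their values were seen. Members and lists were chosen with earlier results of these data known. Labels give a biological replicate number for each mouse and no batch.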

Additional observations from a re-analysis of the deposited data

Results flagged for a closer look

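In 7 of 80 sets (10 members in 8 groups), 1 library stood apart from the rest of its group by Dixon's criterion, which flags about 1 in 20 groups by chance, or 4 of 80. The 7 came from 4 libraries. Sedentary nTG female replicate 1 was the highest of its 8 for Hspa1a (14.9 CPM against 7.29 for the next), Hspa1b (12.6 against 6.87) and Dnajb1 (14.7 against 10.1). Sedentary nTG male replicate 3 was the highest of its 7 for Hspa1b (12.6 CPM against 6.45) and Dnajb1 (17.2 against 10.7). Trained TG female replicate 1 was the highest of its 6 for Hsph1 (47.9 CPM against 37.7). Sedentary nTG female replicate 3 was the lowest of its 8 for Hspb1 (132 CPM against 176).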

How the results depend on the processing

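Of 20 member calls by edgeR, all 20 kept their direction and passed by DESeq2 and by limma voom. The filter on low counts removed no gene, so its omission changes nothing. Median-of-ratios scaling lost Hspb1 in the transgene average (adjusted p = 0.056) and Hspb7 in trained females (0.053), and library number as a covariate lost Hspb1 in the average (0.057) and Hspb7 with training in TG males (0.068). In trained females Hspa1a was gained with library number (adjusted p = 0.027) and Bag3 by limma voom (0.024). With only the groups compared in the fit, 0 members passed in sedentary females. No setting moved the median of all genes by over 0.05. Counts changed as follows for differences between effects: limma voom called 2 members for genotype by training in males (300 of 16913 genes), and for training by sex in TG mice DESeq2 called 1 (223 genes) and limma voom 1 (927 genes). With the cardiomyocyte level as a covariate, chosen after seeing the data, 4 members passed in the transgene average (2310 of all genes, from 6603) and 1 with training in TG males (1261, from 3036).

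With gene columns read by name, 0 members passed in each transgene stratum, in the transgene average and with training in TG males, and 3 (Bag3, Cryab and Hspb6, all lower) passed in the training average, where 2857 of 16913 genes did. The sign then turned in trained males for Bag3 (0.060), Cryab (0.055), Hspb6 (0.046) and Hspb7 (0.13), in the average for Bag3 (0.016), Hspb6 (0.0091), Hspb7 (0.066) and Hspa1a (-0.0052), and in trained females for Hspa1b (-0.28). All results therefore rest on the match of columns, which gave the same 64 pairs from the 159 transcripts with a mean of at least 50 counts.

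Without 1 library, 1 to 3 members passed in sedentary males (3 without nTG replicate 3 or TG replicate 3), 4 to 4 in trained males, 1 to 1 in sedentary females, 3 to 5 in trained females and 6 to 7 in the transgene average. The range was 1 to 3 for training in TG males (1 without sedentary replicate 2 or trained replicate 2) and 0 to 3 for training by sex in TG mice (3 without trained female replicate 6). In the other comparisons it was 0.

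Replicate numbers did not pair the mice: at most 1 of 6 to 8 same-numbered pairs of a comparison correlated above 0.1. With the replicate block, 2 members passed in sedentary males (Hspa1b joined, at 0.63 and an adjusted p of 0.046), and Hspb1 was lost in the transgene average (-0.11, adjusted p = 0.063). Of 45 member pairs, 29 had r over 0.3, and 24 did without the 2 libraries farthest from the median. The precision is set by the spread between mice. The call of Hspa1b in trained females was lost without TG replicate 3. In sedentary males neither Hspa1a nor Hspa1b passed with all libraries, and each passed on leaving out any of several single libraries.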
